A study of Danio rerio with 12 samples.

Results

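The 9 forkhead genes foxc1a, foxc1b, foxf1, foxf2a, foxf2b, foxn4, foxo1a, foxp1b and foxp4, chosen by name as forkhead genes of the heart and vessels, were followed among the 27191 genes counted in zebrafish heart cells. The choice was made with earlier results of these data known. Of the 9 names, 8 matched a single gene each. The name foxo1a did not, because 2 genes of the name table are called FOXO1, ENSDARG00000099555 and ENSDARG00000061549, and which of them is foxo1a was not settled. Both are given below as FOXO1 99555 and FOXO1 61549, after the ends of their identifiers, and are left out of the counts of called genes. All 10 genes passed the filter on low counts. The 51 other forkhead genes of the files, of which 48 passed the filter, served for comparison.

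The hearts came from sqet31Et, an enhancer trap line in which EGFP, behind the basic promoter of krt4, marks the atrioventricular canal (AVC) and some myocardial cells, and in the study's imaging also the bulbus arteriosus (BA), though not before 72 hpf. GFP+ cells of 72 hpf may thus include a tissue that those of 48 hpf lack, and in the stage differences of GFP+ cells and the interactions given here such a change of tissue and a change within cells cannot be told apart. The transposon sits in repetitive DNA, so the enhancer that drives EGFP is not known, and a GFP+ cell is defined by its fluorescence alone. Pools of hearts were dissociated and sorted into GFP+ and GFP− cells at 48 and 72 hours post fertilization (hpf), with 3 libraries for each of the 4 groups. Both fractions came from the same transgenic hearts without any treatment, and the GFP− cells are all cells of the dissected material that did not fluoresce.

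Forkhead proteins bind DNA through a winged helix domain and act in gene families with distinct tissues. FoxC genes act in mesenchyme and in arterial endothelium, FoxF genes act in the mesenchyme of gut and vessels and respond to hedgehog ligands from the neighbouring epithelium in mouse, FoxO proteins are held out of the nucleus by insulin and Akt signalling, and FoxP proteins repress transcription together with the NuRD complex. The gene foxn4 acts upstream of tbx2b in the zebrafish AVC, and its mouse counterpart also acts in retinal progenitors.

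Total counts per library ran from 20530602 to 62359004. One library stood apart, GFP− replicate 1 at 72 hpf, in which the 10 most abundant genes took 21.0% of the counts, against at most 8.47% in any other library. Values without it are given where they change a call or a count of the 10 genes. For the other genes and lists they are given only in part, and counts not so marked may change too. Both GFP− groups carried markers of cells from outside the heart muscle. Summed over 10 retina genes, the levels were 536 to 719 CPM in GFP− and 25.2 to 33.0 CPM in GFP+ cells at 48 hpf, and 369 to 1084 against 5.13 to 13.2 CPM at 72 hpf. CPM are counts scaled to a common library size, adjusted by TMM. Cardiomyocyte markers were called higher in GFP+ cells for 8 of 8 genes at 48 hpf and 4 of 8 at 72 hpf (8 of 8 there without GFP− replicate 1). Of all genes tested, 14.6% were called higher in GFP+ cells at 48 hpf and 6.22% at 72 hpf. The sorted cells are bulk samples, in which fewer cells of a type and less RNA per cell cannot be told apart.

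At 48 hpf, foxc1a, foxc1b, foxf1, foxf2a and foxf2b were higher in GFP+ cells and foxn4 was lower, so that 6 of the 8 genes matched to a single gene passed the test (adjusted p, padj, below 0.05 in edgeR's quasi-likelihood test across all genes). Over all 23222 genes tested the share was 28.9%, with 14.6% higher and 14.4% lower. At 72 hpf, 3 of the 8 passed, foxf1, foxf2b and foxn4, all lower in GFP+ cells, against 17.0% of all genes, of which 6.22% were higher and 10.8% lower. With the replicate block, which compares the fractions within the same replicate number, 7 of the 8 passed at 72 hpf, with foxc1a, foxc1b and foxp4 higher and foxf1, foxf2a, foxf2b and foxn4 lower. Of all 23222 genes 4483 passed in that fit. Without GFP− replicate 1 at 72 hpf, only foxn4 passed at 72 hpf, beside 4473 of all 23839 genes.

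Between the stages, 6 of the 8 changed in GFP+ cells, 2 up and 4 down, where 22.9% of all genes changed, 11.4% up and 11.5% down. In GFP− cells 6 of the 8 changed as well, 5 up and 1 down, beside 48.3% of all genes, 26.1% up and 22.3% down. Without GFP− replicate 1 at 72 hpf, 3 went up and 4 down in GFP+ cells, beside 8260 of all 23839 genes. In GFP− cells 3 went up and 1 down in that fit, beside 10762 of all genes. The fraction difference itself shifted between the stages for foxf1, foxf2a and foxf2b, which is 3 of the 8, all towards GFP− cells. For all genes this interaction of stage and fraction was called in 8.17%, with 2.47% shifting towards GFP+ and 5.70% towards GFP− cells. Each of these 3 calls held in all 18 alternative fits.

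**Figure D1:**
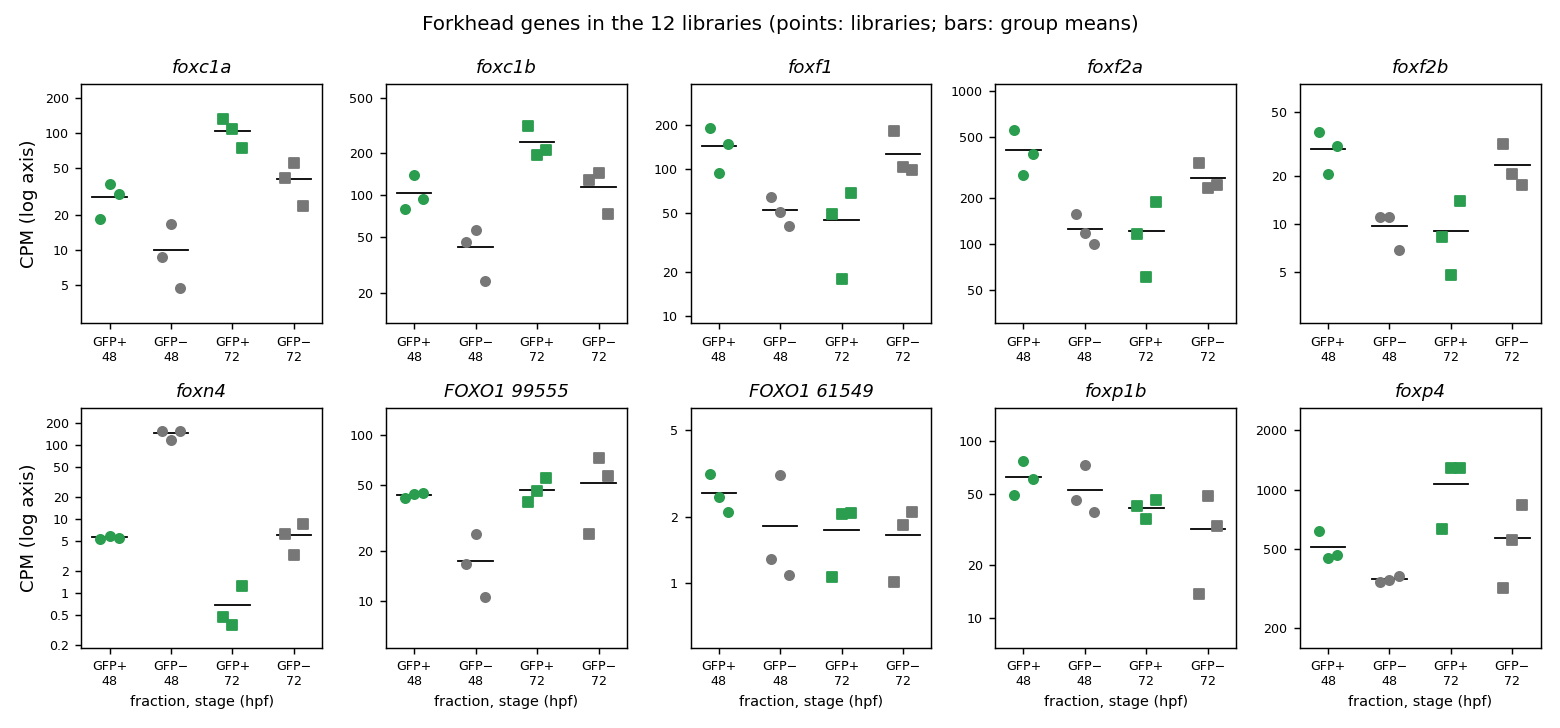
Level of each forkhead gene in the 12 libraries, as CPM on a log axis (green, GFP+; grey, GFP−; circles, 48 hpf; squares, 72 hpf; horizontal bars, means of 3 libraries). The 3 foxf genes change sides between the stages, foxc1a and foxc1b stay higher in GFP+ cells, and foxn4 stands far above the other groups in GFP− cells at 48 hpf.

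The gene foxn4 was found mainly in GFP− cells at 48 hpf. Its level there was 156.7, 118.5 and 157.8 CPM in replicates 1 to 3, against 5.37, 5.96 and 5.59 CPM in GFP+ cells. At 72 hpf it was 6.18, 3.27 and 8.55 CPM in GFP− and 0.471, 0.365 and 1.23 CPM in GFP+ cells, which rest on 26, 19 and 31 counts in the GFP+ libraries. GFP− cells at 48 hpf thus stood highest without overlap, GFP+ cells at 72 hpf lowest without overlap, and GFP+ cells at 48 hpf lay within the range of GFP− cells at 72 hpf. The fraction difference had a log2 fold change (log2FC) of -4.68 ± 0.47 (SE, n = 3 per group, padj = 8.23e-05 in edgeR) at 48 hpf, 25.6-fold lower in GFP+ cells, and of -3.19 ± 0.47 (padj = 0.000616 in edgeR) at 72 hpf, 9.10-fold lower. From 48 to 72 hpf foxn4 fell by 3.10 on the log2 scale in GFP+ cells and by 4.59 in GFP− cells (edgeR padj = 0.000818 and 5.30e-05). The change of the fraction difference between the stages, 1.49, was not called (edgeR padj = 0.148). All 4 called differences held in all 19 alternative fits.

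The gene that foxn4 acts on in the AVC varied less in these libraries. The T-box repressor tbx2b stood at 63.8, 69.8 and 55.5 CPM in GFP+ against 98.1, 84.4 and 78.2 CPM in GFP− cells at 48 hpf, without overlap but with a log2FC of only -0.46 ± 0.26 (edgeR padj = 0.210). At 72 hpf it was 63.5, 52.4 and 64.7 CPM in GFP+ against 29.4, 42.8 and 52.8 CPM in GFP− cells, which overlap by a narrow margin, with a log2FC of 0.53 ± 0.26 (edgeR padj = 0.191). Within each replicate number the GFP+ library was the lower one at 48 hpf and the higher one at 72 hpf, and with the replicate block the differences were -0.46 and 0.56 (edgeR padj = 0.181 and 0.149). In GFP+ cells tbx2b differed by -0.07 ± 0.26 between the stages (edgeR padj = 0.881) while foxn4 fell. In GFP− cells, where foxn4 fell as well, tbx2b was lower at 72 hpf, with a log2FC of -1.06 ± 0.26 (edgeR padj = 0.00610). The partner of foxn4 upstream of tbx2b, the T-box activator tbx5a, was higher in GFP+ cells at 48 hpf (log2FC 1.73 ± 0.55, edgeR padj = 0.0319), the opposite side to foxn4, and averaged 6.25 and 5.92 CPM in the GFP+ and GFP− groups of 72 hpf.

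Markers of retina and neurons lay on the same side as foxn4 between the fractions, but retina markers did not fall with it as a set in GFP− cells between the stages. Of the 10 retina genes, 8 were lower in GFP+ cells at 48 hpf and 9 at 72 hpf, with median log2FC of -3.60 and -6.33, where the medians of all genes were 0.03 and -0.02. Over all genes, 14.4% were lower in GFP+ cells at 48 hpf and 10.8% at 72 hpf. All 5 neuronal genes were lower in GFP+ cells at both stages, with medians of -3.17 and -3.89. Their summed level was 1899 to 2843 CPM in GFP− and 150 to 213 CPM in GFP+ cells at 48 hpf, and 344 to 745 against 21.8 to 43.3 CPM at 72 hpf. Among the retina genes VSX1, a bipolar cell factor, averaged 0.578 CPM in GFP+ against 149.7 CPM in GFP− cells at 48 hpf, and the photoreceptor factor crx 2.19 and 276 CPM. Rhodopsin (rho) had no counts in any of the 3 GFP+ libraries at 48 hpf and averaged 15.3 CPM in GFP− cells. Between the stages, where foxn4 fell in both fractions, 3 retina genes rose and 4 fell in GFP− cells and 3 fell in GFP+ cells. Of the neuronal genes 3 fell in each fraction, and none of them rose. Over all genes, 26.1% rose and 22.3% fell in GFP− cells, and 11.4% rose and 11.5% fell in GFP+ cells. The part of retinal or neural cells in the foxn4 levels was not tested.

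**Figure D2:**
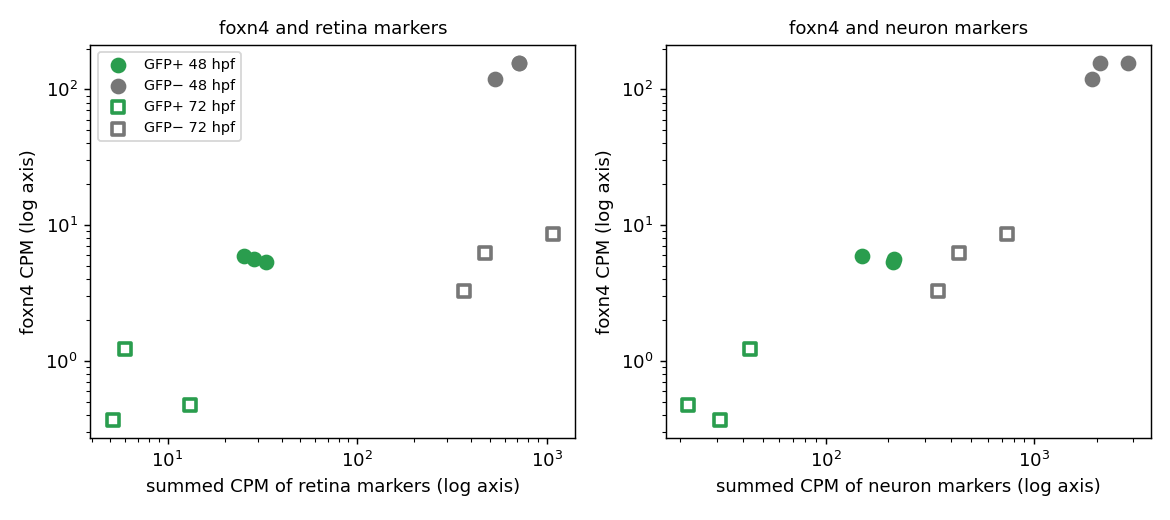
The foxn4 level against the summed level of 10 retina markers (left) and 5 neuron markers (right), both in CPM on log axes, 1 point per library. GFP− libraries at 48 hpf lie at the upper right, with 118.5 to 157.8 CPM of foxn4, and at 72 hpf the GFP− libraries keep 369 to 1084 CPM of retina markers with 3.27 to 8.55 CPM of foxn4. The sum follows mainly the most abundant markers. In GFP− cells at 72 hpf the means of the 10 retina genes ran from 2.73 CPM (rx2) to 200.3 CPM (crx), with rho at 170.8 and VSX1 at 104 CPM.

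Over the 12 libraries, the genes whose log2 CPM was most like that of foxn4 were MYT1, a zinc finger gene of neural progenitors, and NALF2. The name MYT1 stands for 2 genes, with Pearson r of 0.988 and 0.987, and NALF2 had 0.987. These correlations across 12 libraries of 4 groups describe mostly the differences between the groups.

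The paralogues foxc1a and foxc1b were higher in GFP+ cells at 48 hpf and higher at 72 than at 48 hpf in both fractions. The level of foxc1a at 48 hpf was 18.4, 36.9 and 29.9 CPM in GFP+ against 8.71, 16.8 and 4.78 CPM in GFP− cells. The later stage brought 131.7, 107.7 and 74.6 CPM in GFP+ against 41.6, 55.5 and 23.8 CPM in GFP− cells. Every GFP+ library lay above every GFP− library of its stage, and the GFP+ libraries at 72 hpf above all others. The fraction difference was 1.49 ± 0.46 at 48 hpf (edgeR padj = 0.0281) and 1.38 ± 0.46 at 72 hpf (edgeR padj = 0.0577, and 0.0187 with the replicate block). From 48 to 72 hpf foxc1a rose by 1.88 ± 0.47 in GFP+ and 2.00 ± 0.47 in GFP− cells (edgeR padj = 0.0124 and 0.00452), 3.69-fold and 3.99-fold.

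The level of foxc1b was 80.2, 140.0 and 93.9 CPM in GFP+ against 46.1, 56.8 and 24.2 CPM in GFP− cells at 48 hpf. At the later stage it was 317.3, 194.4 and 210.2 CPM in GFP+ against 129.3, 143.5 and 73.9 CPM in GFP− cells. The fractions again did not overlap at either stage. The fraction difference of foxc1b was 1.31 ± 0.38 at 48 hpf (edgeR padj = 0.0216) and 1.06 ± 0.38 at 72 hpf (edgeR padj = 0.0771, and 0.0367 with the replicate block). Between the stages it rose by 1.20 ± 0.38 in GFP+ and 1.45 ± 0.38 in GFP− cells (edgeR padj = 0.0389 and 0.00861). The change of the fraction difference between the stages passed the test for neither paralogue (-0.11 ± 0.64 and -0.25 ± 0.53, edgeR padj = 0.926 and 0.794).

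Reads of the pair were divided unevenly and the division moved with stage. Of the counts of both genes together, foxc1a held 15.9% to 24.1% in the 6 libraries at 48 hpf and 24.3% to 35.7% in the 6 at 72 hpf, so that every library at 72 hpf lay above every library at 48 hpf, by a narrow margin. Shares of this kind do not depend on depth, but reads that fit both paralogues may have been assigned to either. Over the 12 libraries the gene most like foxc1a was foxc1b (r = 0.982), followed by surf4l and gask1b, and foxc1b was most like foxc1a, surf4l and tdgf1. The GFP+ call of foxc1a at 48 hpf was lost without GFP+ replicate 2 or 3 or GFP− replicate 1 or 3 (log2FC 1.26, 1.45, 1.39 and 1.15), and that of foxc1b without GFP+ replicate 2 or GFP− replicate 1 or 3 (1.04, 1.37 and 1.01). The rise in GFP+ cells was lost for foxc1a without GFP+ replicate 1 of 48 or of 72 hpf (1.65 and 1.61) and for foxc1b on unscaled total counts (0.89, edgeR padj = 0.148) and without any single one of 6 libraries (0.88 to 1.34), which were the 3 GFP+ libraries at 72 hpf, GFP+ replicates 1 and 3 at 48 hpf and GFP− replicate 1 at 48 hpf. At 72 hpf the fraction difference of foxc1a was called with DESeq2 (1.30, padj = 0.0334) and without GFP− replicate 2 of 48 or of 72 hpf (1.38 and 1.69).

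Arterial and Notch genes, the setting in which FoxC factors are best known in vessels, were split. Of 16 endothelial and Notch genes, 3 were higher and 3 lower in GFP+ cells at 48 hpf, and 4 higher and 3 lower at 72 hpf, with medians of 0.56 and -0.42. The share called over all genes was 28.9% at 48 hpf and 17.0% at 72 hpf. The Notch ligand jag1b was higher in GFP+ cells at both stages (by 1.36 at 48 hpf, and at 72 hpf not without GFP− replicate 1, with 0.91, edgeR padj = 0.0791), as foxc1a and foxc1b were at 48 hpf, while the receptor notch1a was lower at both (-1.81 and -1.40). The receptor notch3 was lower in GFP+ cells at 48 hpf (-1.36) and higher at 72 hpf (2.03), and the Notch target hey1 was higher at 72 hpf (2.30). None of the 6 markers of endocardium and endothelium was called at 48 hpf, and tek and she were lower in GFP+ cells at 72 hpf (-2.09 and -1.47), tek not with the replicate block (-1.92, edgeR padj = 0.0654). Epicardial markers were higher in GFP+ cells for 4 of 6 genes at 48 hpf and 3 of 6 at 72 hpf, beside foxc1a and foxc1b, and their part in the foxc1 levels was not tested.

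The genes foxf1, foxf2a and foxf2b were higher in GFP+ cells at 48 hpf and lower in GFP+ cells at 72 hpf. At 48 hpf foxf1 stood at 191.7, 94.7 and 147.5 CPM in GFP+ against 64.9, 51.1 and 41.3 CPM in GFP− cells, without overlap. At 72 hpf the GFP+ cells had 49.8, 17.9 and 68.6 CPM and the GFP− cells 182.0, 102.9 and 98.6 CPM, again without overlap but in the opposite order. The fraction difference of foxf1 was 1.46 ± 0.45 at 48 hpf (edgeR padj = 0.0283) and -1.49 ± 0.46 at 72 hpf (edgeR padj = 0.0399). The difference between these values, -2.96 ± 0.64, was called (edgeR padj = 0.0160). It came from both fractions, since foxf1 fell by 1.67 in GFP+ cells and rose by 1.29 in GFP− cells from 48 to 72 hpf (edgeR padj = 0.0202 and 0.0325).

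The level of foxf2a at 48 hpf was 554.7, 282.4 and 388 CPM in GFP+ against 155.9, 117.2 and 99.2 CPM in GFP− cells. By 72 hpf foxf2a stood at 116.5, 60.9 and 187.2 CPM in GFP+ against 335.4, 231.3 and 243.3 CPM in GFP− cells. The fractions did not overlap at either stage. In GFP+ cells foxf2a was 3.29-fold higher at 48 hpf (log2FC 1.72 ± 0.40, edgeR padj = 0.00668). It was 2.22-fold lower at 72 hpf without passing the test (-1.15 ± 0.40, edgeR padj = 0.0668, and 0.0243 with the replicate block), and was called with DESeq2 (-1.24, padj = 0.0209). Its interaction was -2.87 ± 0.57 (edgeR padj = 0.0108), with a fall by 1.75 in GFP+ cells (edgeR padj = 0.00883) and a rise of 1.12 in GFP− cells (edgeR padj = 0.0337).

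For foxf2b the levels were lower throughout. At 48 hpf they were 37.3, 20.4 and 30.5 CPM in GFP+ against 11.1, 11.1 and 6.88 CPM in GFP− cells, and at 72 hpf 8.24, 4.84 and 14.0 CPM in GFP+ against 31.3, 20.5 and 17.5 CPM in GFP− cells. The order of the fractions reversed without overlap here too. The fraction difference was 1.60 ± 0.41 at 48 hpf (edgeR padj = 0.00998) and -1.36 ± 0.40 at 72 hpf (edgeR padj = 0.0354), with an interaction of -2.96 ± 0.57 (edgeR padj = 0.00986). Between the stages foxf2b fell by 1.71 in GFP+ cells (edgeR padj = 0.0101) and rose by 1.25 in GFP− cells (edgeR padj = 0.0219). The share of foxf2a among the counts of the pair stayed between 91.4% and 93.7% in the 12 libraries.

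**Figure D3:**
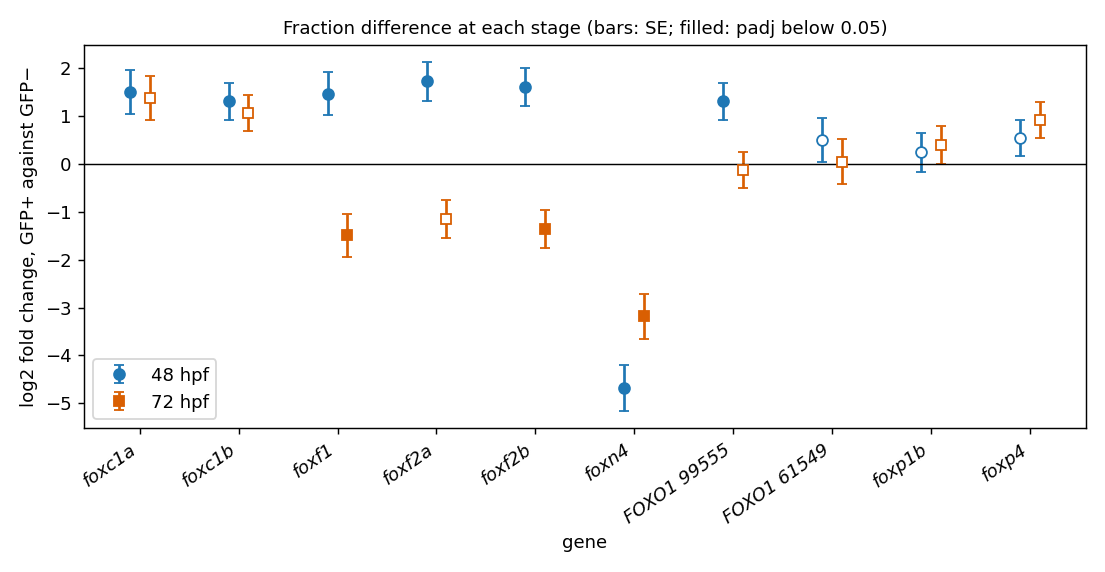
Fraction difference (log2FC, GFP+ against GFP−) of each forkhead gene at 48 hpf (blue circles) and 72 hpf (orange squares), with SE bars and filled symbols where padj was below 0.05. The foxf genes lie between 1.46 and 1.72 at 48 hpf and between -1.49 and -1.15 at 72 hpf, and foxn4 lies at -4.68 and -3.19.

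The interaction of the 3 foxf genes was still called without GFP− replicate 1 at 72 hpf (-2.58, -2.65 and -2.66, edgeR padj = 0.0162, 0.00892 and 0.00866). Without that library the fraction difference at 72 hpf was -1.13, -0.95 and -1.06 for foxf1, foxf2a and foxf2b (edgeR padj = 0.0934, 0.122 and 0.0810), and the rise in GFP− cells 0.92, 0.91 and 0.95 (edgeR padj = 0.101, 0.0754 and 0.0646), none of them called. At 48 hpf the foxf1 call was lost without GFP+ replicate 1 or 3 (1.21 and 1.45) or any single GFP− library (1.64, 1.44 and 1.29), and the foxf2b call without GFP− replicate 3 (1.39). The calls at 72 hpf were also lost without GFP+ replicate 1 or 2 of that stage for foxf1 (-1.65 and -1.10) and foxf2b (-1.39 and -1.05), on unscaled total counts (-1.36 and -1.24, edgeR padj = 0.0650 and 0.0754) and in a separate fit of both fractions of 72 hpf (-1.59 and -1.46, edgeR padj = 0.108 and 0.0888). They were lost too without GFP+ replicate 3 or GFP− replicate 1 of 48 hpf for both genes (-1.48 and -1.49 for foxf1, -1.35 for each with foxf2b), without GFP− replicate 2 of 48 hpf for foxf1 (-1.48) and without GFP− replicate 2 of 72 hpf for foxf2b (-1.43), and foxf2a was called without GFP+ replicate 3 of 72 hpf (-1.59). The rise in GFP− cells was lost without any single GFP− library of 48 hpf for foxf1 (1.46, 1.25 and 1.16), without replicate 2 or 3 for foxf2a (1.07 and 1.00) and without replicate 3 for foxf2b (1.07). The fall of foxf1 in GFP+ cells was lost without GFP+ replicate 1 or 3 of 48 hpf or replicate 1 or 2 of 72 hpf (-1.41, -1.66, -1.79 and -1.29).

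The reversal was uncommon among the genes tested. It was called in both directions, higher in GFP+ cells at 48 hpf and lower at 72 hpf, for 92 of 23222 genes (0.396%), among them foxf1 and foxf2b and, of the other forkhead genes, foxl1 and foxd7. Without GFP− replicate 1 at 72 hpf it was called for 114 of 23839 genes (0.478%), with foxl1 but none of foxf1, foxf2b and foxd7. In mouse, Foxl1 marks mesenchyme of the gut, as the FoxF genes do. In these libraries foxl1 stood at 25.8, 27.8 and 27.3 CPM in GFP+ against 6.32, 7.48 and 5.93 CPM in GFP− cells at 48 hpf, and at 17.5, 9.66 and 33.2 CPM against 99.0, 59.2 and 58.1 CPM at 72 hpf. The foxl1 interaction was -3.88 ± 0.56 (edgeR padj = 0.00286), and -3.56 without GFP− replicate 1 of 72 hpf (edgeR padj = 0.00175). It was not called between the stages in GFP+ cells (-0.43 ± 0.38, edgeR padj = 0.454) and rose by 3.45 ± 0.42 in GFP− cells.

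**Figure D4:**
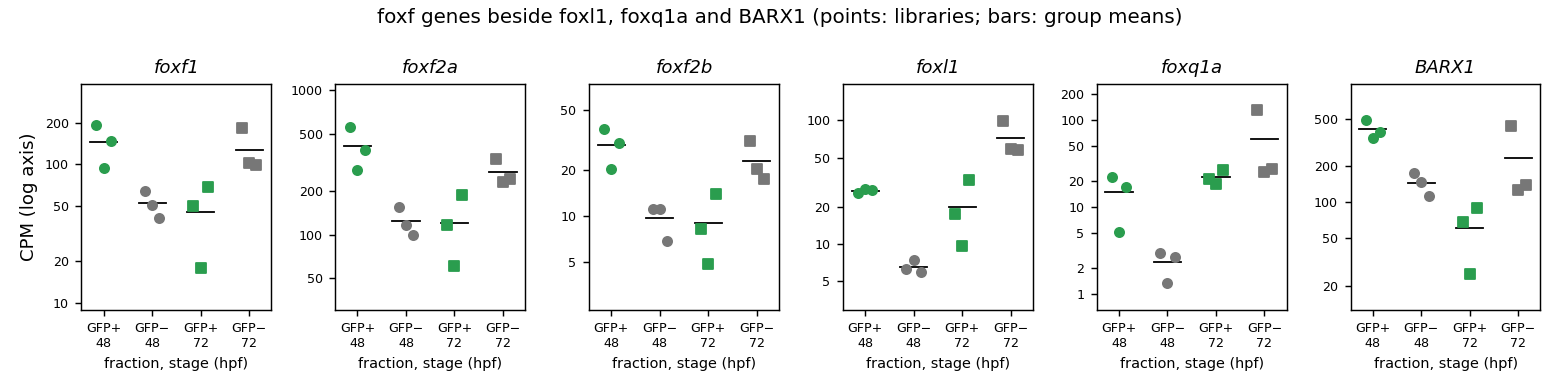
Levels of foxf1, foxf2a and foxf2b beside foxl1, foxq1a and BARX1 in the 12 libraries, as CPM on a log axis (green, GFP+; grey, GFP−; circles, 48 hpf; squares, 72 hpf; horizontal bars, means of 3 libraries). In GFP− cells at 72 hpf replicate 1 is the highest of the 3 libraries for each gene, and foxq1a stands at 130.1 CPM there and at 24.9 and 27.1 CPM in the others. This order depends on scaling, since the TMM factor was 0.575 in replicate 1 and 1.02 and 1.18 in replicates 2 and 3. Relative to unscaled total counts, replicate 1 is the highest for foxq1a and BARX1 only.

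Several gene groups of the gut and pharynx also differed between the fractions. Over all genes, 14.6% were higher and 14.4% lower in GFP+ cells at 48 hpf, and 6.22% and 10.8% at 72 hpf. Between the stages, 11.4% of all genes rose and 11.5% fell in GFP+ cells, and 26.1% rose and 22.3% fell in GFP− cells. The interaction was called in 8.17% of all genes. Of 10 genes of endoderm, liver and gut, 8 were higher in GFP+ cells at 48 hpf, with summed levels of 422 to 1775 CPM against 35.4 to 64.5 CPM in GFP− cells. At 72 hpf the sums were 1158 to 1710 and 1049 to 1547 CPM, with 3 genes higher and 1 lower in GFP+ cells (4 higher and none lower without GFP− replicate 1). Between the stages 1 of the 10 rose and 0 fell in GFP+ cells, and 7 rose and 0 fell in GFP− cells. Of these genes, the liver transcripts fga, fgb, tfa and fabp10a were higher at 48 hpf by 6.33, 5.98, 5.91 and 5.61, and at 72 hpf the intestinal factor cdx1b was higher (1.83) and the liver factor hhex lower (-2.77), the latter not without GFP− replicate 1 (-1.12, edgeR padj = 0.152). Among 8 genes of neural crest and pharyngeal mesenchyme, 6 were higher and 1 lower in GFP+ cells at 48 hpf, and none was higher and 2 lower at 72 hpf (2 higher and 2 lower with the replicate block, and 2 higher and 1 lower without GFP− replicate 1). The median of this list stayed above 0 at 72 hpf, at 0.45, and its summed level in GFP+ cells was 1222 to 1482 CPM at 48 hpf and 1538 to 2299 CPM at 72 hpf. Such a sum follows mainly the most abundant genes. From 48 to 72 hpf 1 of the 8 rose and 5 fell in GFP+ cells, with a median of -1.94 (2 and 6 without GFP− replicate 1 of 72 hpf). In GFP− cells 2 rose and 3 fell, with a median of -0.43. In 1 of its 8 genes the interaction was called (3 without GFP− replicate 1 of 72 hpf). This gene was BARX1, a factor of pharyngeal arch and stomach mesenchyme, with means of 407.6 CPM in GFP+ against 145.2 CPM in GFP− cells at 48 hpf and of 60.9 and 233.7 CPM at 72 hpf. Without GFP− replicate 1 the GFP− mean of BARX1 at 72 hpf was 133.1 CPM, its difference there changed from -1.94 to -1.11 and was not called (edgeR padj = 0.0222 and 0.0696), and its interaction was still called (-3.43 and -2.59, edgeR padj = 0.0148 and 0.00990). The part of these tissues in the foxf levels was not tested.

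Over the 12 libraries the 3 foxf genes were alike, with Pearson r between 0.973 and 0.983 for their pairs. The closest to foxf1 were foxf2b (r = 0.978), foxf2a (0.973) and PAMR1 (0.959). The closest to foxf2a were foxf2b (0.983), foxf1 and PAMR1 (0.971), and to foxf2b foxf2a, the posterior Hox gene HOXB9 (0.982) and PAMR1 (0.979). Mean levels of HOXB9 were 33.5 CPM in GFP+ against 13.9 CPM in GFP− cells at 48 hpf, and 10.8 and 27.5 CPM at 72 hpf. The name PAMR1 stands for 2 genes. The one alike averaged 6.79 CPM in GFP+ against 3.11 CPM in GFP− cells at 48 hpf, and 2.52 and 5.00 CPM at 72 hpf. The other PAMR1 gene rose in GFP+ cells by 2.41 ± 0.46 (edgeR padj = 0.00334), with an interaction of 0.56 ± 0.63 (edgeR padj = 0.594).

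The foxf2 and foxc1 genes lie close together in the zebrafish genome, foxf2b directly beside foxc1b and foxf2a with ftr93 between it and foxc1a. In RefSeq's annotation of the GRCz12tu assembly, which was used for gene order only, foxc1a is followed by ftr93, foxf2a and foxq1a, and the order foxq1b, foxf2b, foxc1b is found for the second copies. The balance of each foxf2 gene and its nearby foxc1 gene was compared between libraries. The ratio of foxf2a to foxc1a counts was 30.1, 7.66 and 13 in GFP+ and 17.9, 6.99 and 20.8 in GFP− libraries at 48 hpf. It was 0.885, 0.566 and 2.51 in GFP+ and 8.06, 4.17 and 10.2 in GFP− libraries at 72 hpf. The GFP+ libraries at 72 hpf thus lay below all 9 others for this pair. For foxf2b and foxc1b the ratio ran from 0.0249 to 0.0664 in GFP+ cells at 72 hpf and from 0.143 to 0.465 in the other 9 libraries, also without overlap. Such a ratio is compared between libraries only, since the lengths of the genes were not taken into account.

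**Figure D5:**
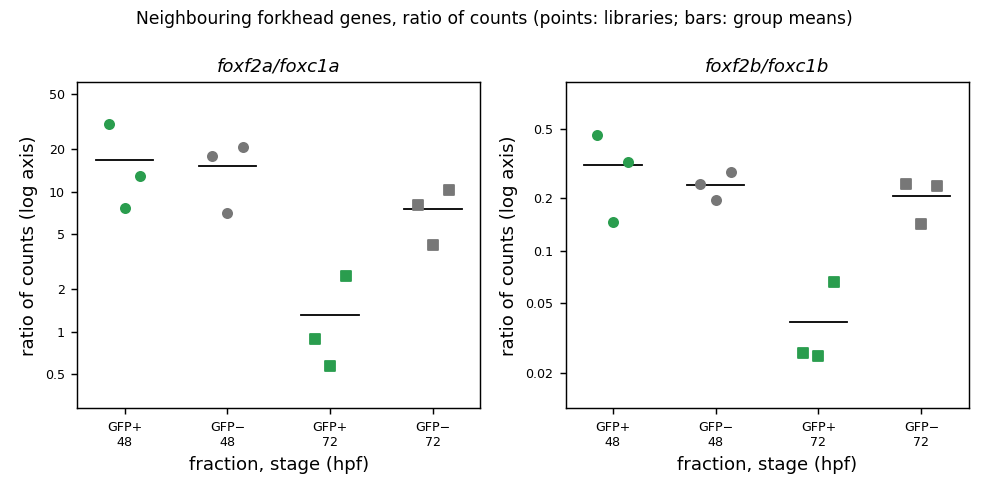
Ratio of the counts of foxf2a to foxc1a and of foxf2b to foxc1b, its neighbour, in each library, on a log axis (green, GFP+; grey, GFP−; circles, 48 hpf; squares, 72 hpf; horizontal bars, means of 3 libraries). Both ratios are lowest in GFP+ cells at 72 hpf, at 0.566 to 2.51 and 0.0249 to 0.0664.

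The forkhead gene next to foxf2a or foxf2b in each cluster, foxq1a or foxq1b, was also higher in GFP+ cells at 48 hpf. In GFP+ cells at 48 hpf foxq1a was higher than in GFP− cells by 2.68 ± 0.68 (edgeR padj = 0.0100) and foxq1b, named here for its position, by 1.97 ± 0.48 (edgeR padj = 0.00785). At 72 hpf the values were -1.47 ± 0.64 and -0.62 ± 0.47 (edgeR padj = 0.142 and 0.381), not called. Both interactions were called, at -4.15 ± 0.93 and -2.59 ± 0.66 (edgeR padj = 0.0185 and 0.0325), as for foxf2a and foxf2b. Without GFP− replicate 1 of 72 hpf the differences at that stage were -0.23 for foxq1a and 0.04 for foxq1b (edgeR padj = 0.784 and 0.955), and the interactions -2.89 and -1.92 were still called (edgeR padj = 0.0145 and 0.0380).

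Hedgehog signalling genes, upstream of FoxF in mouse, were higher in GFP+ cells wherever a fraction difference was called. Of 15 tested, 2 were higher in GFP+ cells at 48 hpf (6 with the replicate block and 9 without GFP− replicate 1 at 72 hpf) and 9 at 72 hpf, with none lower and medians of 0.85 and 1.20. Of all genes, 14.6% were higher in GFP+ cells at 48 hpf and 6.22% at 72 hpf. The ligand ihha was higher in GFP+ cells by 4.97 ± 0.81 at 48 hpf and 3.35 ± 0.73 at 72 hpf, and the ligand shha by 2.03 ± 0.38 at 72 hpf. The transcription factors gli2a and gli2b were higher by 2.38 ± 0.41 and 1.87 ± 0.48 at 72 hpf, where foxf1 and foxf2b were lower. Smooth muscle and BA markers were higher in GFP+ cells for 4 of 8 genes at each stage (6 and 5 with the replicate block), and all 8 rose between the stages in both fractions. Over all genes, 11.4% rose in GFP+ cells and 26.1% in GFP− cells. With all libraries the foxf genes fell in GFP+ and rose in GFP− cells. The part of hedgehog signalling or of smooth muscle in the foxf levels was not tested.

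FOXO1 99555 was higher in GFP+ cells at 48 hpf and was not called at 72 hpf. Its level at 48 hpf was 41.7, 44.3 and 44.6 CPM in GFP+ against 16.7, 25.5 and 10.6 CPM in GFP− cells, without overlap. The values at 72 hpf were 39.4, 45.8 and 55.3 CPM in GFP+ against 25.4, 72.3 and 56.3 CPM in GFP− cells, where the fractions overlap. The log2FC was 1.31 ± 0.39 at 48 hpf (edgeR padj = 0.0227) and -0.13 ± 0.38 at 72 hpf (edgeR padj = 0.834). In GFP− cells it rose by 1.55 ± 0.39 (edgeR padj = 0.00657), while in GFP+ cells the difference between the stages was 0.11 ± 0.38 (edgeR padj = 0.871). The interaction, -1.44 ± 0.54, was not called (edgeR padj = 0.119), but was with DESeq2 (-1.47, padj = 0.0458) and without GFP− replicate 1 at 72 hpf (-1.74, edgeR padj = 0.0181). The call at 48 hpf was lost without any one GFP+ library of that stage (1.34, 1.30 and 1.29) or GFP− replicate 1 or 3 (1.27 and 1.03), and on unscaled total counts (1.31, edgeR padj = 0.0862).

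FOXO1 61549 was sparse, with 12 to 120 counts per library. Its levels were 3.16, 2.47 and 2.12 CPM in GFP+ against 1.28, 3.12 and 1.09 CPM in GFP− cells at 48 hpf, and 1.07, 2.07 and 2.10 against 1.02, 1.85 and 2.11 CPM at 72 hpf. The fractions overlapped at both stages and no comparison was called. The 95% interval of the fraction difference was -0.514 to 1.504 at the earlier and -0.98 to 1.06 at the later stage.

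Genes around FoxO gave mixed counts. Of 10 genes of insulin, PI3K and Akt signalling, 1 was higher and 1 lower in GFP+ cells at 48 hpf and 1 higher at 72 hpf (3 higher and 1 lower, and 4 higher, with the replicate block, and 3 higher and 1 lower at 48 hpf without GFP− replicate 1 of 72 hpf). These were the kinases sgk1 (1.16) and akt3b (-2.18), and the insulin receptor substrate irs2b (1.55). Of 17 FOXO target genes, 5 were higher and 1 lower at 48 hpf (9 and 1 with the replicate block) and 4 higher and 2 lower at 72 hpf, with medians of 0.77 and -0.14. Of all genes tested, 28.9% were called at 48 hpf and 17.0% at 72 hpf, with medians of 0.03 and -0.02. The muscle ubiquitin ligase gene trim63a was higher in GFP+ cells at both stages (by 1.99 at 72 hpf), the gluconeogenic pck1 at 48 hpf (3.17), and the ubiquitin ligase gene FBXO32 was lower at 72 hpf (-2.80). Over the 12 libraries, the genes most like FOXO1 99555 were the matrix gene postna (r = 0.971), the ligand gene BMP6 (0.968) and ccdc3b (0.966), and those most like FOXO1 61549 included MBNL1 (0.939) and ITPR2 (0.884).

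With all libraries in the edgeR fit of the 4 groups, neither foxp1b nor foxp4 was called in any of the 5 comparisons, but foxp4 was called in several alternatives. The level of foxp1b was 49.3, 76.8 and 61.3 CPM in GFP+ against 46.2, 73.3 and 39.7 CPM in GFP− cells at 48 hpf, and 42.7, 36.1 and 46.7 against 13.6, 49.0 and 33.1 CPM at 72 hpf. The fractions overlapped at both stages, with differences of 0.24 (95% interval -0.631 to 1.101) and 0.39 (-0.48 to 1.26). Without GFP− replicate 2 at 72 hpf, foxp1b was called lower at 72 than at 48 hpf in GFP− cells (-1.19, edgeR padj = 0.0376), against -0.73 ± 0.40 with all libraries.

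The level of foxp4 was 617, 448.8 and 468.9 CPM in GFP+ against 339.5, 349.9 and 367.6 CPM in GFP− cells at 48 hpf. Later, at 72 hpf, it was 632.1, 1288 and 1292 CPM in GFP+ against 317.4, 554 and 835.2 CPM in GFP− cells. The fractions were apart at 48 hpf and overlapped at 72 hpf, where GFP+ replicate 1 lay below the highest GFP− library, and within each replicate number the GFP+ library was the higher one. The fraction difference was 0.54 ± 0.37 at 48 hpf (95% interval -0.26 to 1.34, edgeR padj = 0.309) and 0.91 ± 0.37 at 72 hpf (0.11 to 1.72, edgeR padj = 0.117). With the replicate block the difference at 72 hpf was 0.95 (edgeR padj = 0.0220). Between the stages foxp4 differed by 1.07 ± 0.37 in GFP+ cells (edgeR padj = 0.0565) and 0.69 ± 0.37 in GFP− cells (edgeR padj = 0.138). Without GFP− replicate 3 at 72 hpf the fraction difference at that stage was called (1.30, edgeR padj = 0.0381). In a separate fit of both fractions of 48 hpf the fraction difference was called (0.55, edgeR padj = 0.0318). The GFP+ stage difference was called with DESeq2 (1.04, padj = 0.0174), in a separate fit of the GFP+ groups (1.05, edgeR padj = 0.0183), and without GFP+ replicate 1 (1.27) or GFP− replicate 1 or 3 of 72 hpf (1.07 for each), and that of GFP− cells without GFP− replicate 1 (0.96).

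Among 12 tested partners and targets of FoxP proteins, 3 were higher and 4 lower in GFP+ cells at 48 hpf, with a median of -0.14, and 1 was higher at 72 hpf (2 higher and 1 lower without GFP− replicate 1 of that stage). The share called over all genes was 28.9% at 48 hpf and 17.0% at 72 hpf. The cardiac factor nkx2.5 was higher at 48 hpf (3.07 ± 0.35), while FOXP2 and GATAD2B, a subunit of the NuRD complex, were lower (-2.52 and -1.71), and MTA1, another subunit, was higher at 72 hpf (1.26). The genes most like foxp1b over the 12 libraries were plagl2 (r = 0.983), ZBTB46 (0.978) and SNX33 (0.977), and those most like foxp4 were PFKP (0.973), PLEKHA8 (0.972) and c3b.1 (0.948). No member of the set was among them.

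Of the other 48 forkhead genes tested, at 48 hpf 13 were higher and 9 lower in GFP+ cells (median -0.03), and at 72 hpf 4 were higher and 11 lower (median -0.31), or 8 higher and 10 lower with the replicate block. Over all genes 14.6% were higher and 14.4% lower at 48 hpf, and 6.22% and 10.8% at 72 hpf. Without GFP− replicate 1 of 72 hpf, 15 of 49 were higher and 15 lower at 48 hpf, and 5 and 12 at 72 hpf. The endodermal factor foxa3 was higher in GFP+ cells at both stages (5.00 ± 0.49 and 1.63 ± 0.42), as was foxa1 (2.32 and 1.70). The neuronal foxo6b was on the side of foxn4 (-3.76 and -4.61). The interaction was called in 7 of the 48, all shifting towards GFP− cells like the foxf genes. Over all genes it was called in 8.17%, with 5.70% shifting towards GFP− and 2.47% towards GFP+ cells.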

How the data were processed

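Hearts of sqet31Et embryos were pooled, dissociated and sorted by fluorescence, and polyA RNA was made into libraries with SMART-Seq v4 and Nextera XT, a protocol that does not mark strand. The authors trimmed reads with Cutadapt 1.17, assigned them with Salmon 0.9.1 to GRCz11 and deposited whole-number counts for each Ensembl gene. How transcript estimates were summed and rounded is not given in the sources used here, and reads that fit several paralogues (foxc1a and foxc1b, foxf2a and foxf2b, the FOXO1 pair) or an overlapping or antisense gene may have been assigned to either.

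Symbols came from the study's tables for 3327 genes and from a name table for 22127, and 1737 of the 27191 genes carry none. Of 200 list entries, 151 matched a gene. The 9 members and the gene lists were chosen with earlier results of these data known. After filterByExpr by group (23222 genes kept) and TMM scaling, the quasi-likelihood test of edgeR 4.0.16 in R 4.3.3 was run in a single fit of the 4 groups, with Benjamini-Hochberg adjustment over all genes tested, a threshold of 0.05 and no fold limit. SE is the log2FC divided by the root of its F statistic. The fit was tested on simulated counts with real means and library sizes but a fixed spread not taken from these libraries. For GFP+ against GFP− cells at 48 hpf it recovered 16.4% of genes with a true log2 change of 1, 91% at 2 and 100% at 3. Under that setting most differences near 1 were thus not called. Python 3.11.15 and matplotlib were used for tables and figures.

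Alternatives were DESeq2 1.42.0, its size factors in edgeR, no scaling, no filter, a stricter filter (10 counts in every library of 1 group), the replicate number as a block, separate fits for each pair of groups, and leaving out each library. Each replicate held both fractions at both stages per the methods, so the replicate numbers of the labels were taken as pairs. For the fraction differences the block was the replicate number within a stage. For the stage differences and the interaction it was the replicate number alone, shared by both stages, so those fits did not pair the fractions within a stage. After subtracting group means, GFP+ and GFP− libraries of the same number correlated at 0.0975, 0.314 and 0.157 at 48 hpf and at 0.338, -0.0823 and 0.369 at 72 hpf. A legend calls the replicates technical, and p-values then measure only the spread between these libraries. Named genes were all members, up to 6 other forkhead genes per fraction comparison with padj below 0.05 and a mean log2 CPM of at least 1, up to 4 called genes per list and fraction comparison, each by size of log2FC, tbx2b and tbx5a, and the 3 genes most like each member by Pearson r. Members of a list named beyond that rule (notch1a at 72 hpf, jag1b at 72 hpf, she, foxq1b, crx, the second stage of a gene named at 1 stage) were added after their values were seen. Some genes that this rule names are not reported here.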

Additional observations from a re-analysis of the deposited data

Results flagged for a closer look

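The fraction difference changed between 48 and 72 hpf for 3 of the 8 genes matched to a single gene, tested by the interaction of stage and fraction in edgeR. The change was -2.96 for foxf1, -2.87 for foxf2a and -2.96 for foxf2b on the log2 scale, with all 3 GFP+ libraries above all 3 GFP− libraries at 48 hpf and below them at 72 hpf. Their levels correlate closely over the 12 libraries, so that they are not 3 independent observations. The interaction was called in 8.17% of all genes, with 5.70% shifting towards GFP− cells. Between the stages 11.4% of all genes rose in GFP+ cells and 26.1% in GFP− cells. Among markers of endoderm, liver and gut the interaction was called in 7 of 10, towards GFP− cells as for the foxf genes. Between the stages 1 of these markers rose and 0 fell in GFP+ cells, where the foxf genes fell, and 7 rose in GFP− cells. The median fraction difference of these markers stayed above 0 at 72 hpf, at 0.80, and the part of such tissue was not tested.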

How the results depend on the processing

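For the 10 genes, 840 of the alternative log2FC kept direction and call, 60 lost the call, 20 gained it and 20 changed sign without being called. Of the 8 genes matched to a single gene, 3 passed at 72 hpf between the fractions, against 7 with the replicate block, 5 with DESeq2's Wald test, 1 with total counts and 1 in separate fits of each pair of groups. The replicate block changed no other call of the 10 genes. Over all 23222 genes the fraction difference at 72 hpf was called for 3944 in the main fit and 4483 with the replicate block. It was called for 5443 with DESeq2, 2934 with total counts and 2341 of 21986 in the separate fit. With total counts, where the median of all genes shifted by -0.30 in GFP+ and -0.21 in GFP− cells between the stages, 3 of the 8 changed in GFP− cells (8943 of all 23222 genes), and relative to that shift foxf1, foxf2a and foxf2b rose by 1.12, 1.01 and 1.09 there. Of the other forkhead genes, 13 changed between the stages in GFP− cells in a fit of those groups alone (8021 of all 22080 genes), and the interaction was called for 12 with DESeq2 (3836 of all 23222 genes).

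Leaving out each library gave 2 to 6 of the 8 called at 48 hpf, 1 to 4 at 72 hpf, 3 to 7 between the stages in GFP+ and 3 to 7 in GFP− cells, and 3 each time for the interaction. Of the other forkhead genes it gave 6 to 20 between the stages in GFP+ cells, 15 to 24 in GFP− cells and 5 to 11 for the interaction. Over all genes tested, 23676 to 23897 per fit, the same fits called 4573 to 9342 at 48 hpf and 2408 to 4473 at 72 hpf. Between the stages they called 2943 to 8260 in GFP+ and 8882 to 12054 in GFP− cells, and 967 to 3564 for the interaction. The fraction difference of FOXO1 61549 at 72 hpf was -0.0040 with the size factors of DESeq2, -0.055 with total counts, -0.012 with DESeq2, -0.049 in the separate fit and -0.17 to 0.24 without single libraries, and that of FOXO1 99555 -0.44 to 0.20. The stage difference in GFP+ cells of FOXO1 99555 was -0.18 with total counts and -0.029 to 0.16 without single libraries, and that of FOXO1 61549 in GFP− cells -0.39 to 0.50. The interaction ran from -0.68 to 0.20 for foxc1a, -0.58 to 0.024 for foxc1b and -0.19 to 0.61 for foxp1b. These sign changes concern values near 0, and the causes of the lost and gained calls were not tested.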
